A study of Mus musculus with 6 samples.

Results

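The cytosolic ribosomal protein genes were followed in 6 primary ovarian tumors, 3 grown in wild-type (WT) mice and 3 in Tgm2 knockout mice. Members were taken by symbol, as every gene named Rpl, Rps or Rplp with a number plus Rpsa, without pseudogenes named -ps and without the S6 kinases, which gave 88 of the 20076 genes in the table. The set was selected on the WT against knockout values and the tumor means of these same samples, so its fold changes are a description, and the limma results printed for members come from the fit over all genes and support nothing about them. Of the 88 genes, 79 were treated as core members and 9 came from a list of tissue-restricted or variant paralogs. The mouse annotation (GENCODE M21, GRCm38) records 83 of the 88 as protein coding and 5 as pseudogenes, namely Rpl6l, Rpl32l, Rps3a2, Rps3a3 and Rps4l. Leaving out the paralog list, Rpl6l and Rpl32l left 77 genes, 1 for each of 77 proteins of the cytosolic ribosome.

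All 6 tumors grew in C57BL/6 mice from ID8 Trp53-/- Brca1-/- cells, an ovarian cancer line of mouse origin without these tumor suppressors, which had been placed in the ovarian bursa 6 weeks before collection. The WT group had intact hosts, and the knockout group had hosts without Tgm2, the gene of transglutaminase 2, in the whole body. The cancer cells carried Tgm2 in both groups, so the model removes the protein only from host cells. Transcripts of polyadenylated RNA had been quantified by the authors and scaled to normalized counts, which summed to between 32316613 and 37717165 per tumor.

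A ribosome is built from a small and a large subunit, each a core of ribosomal RNA covered by proteins, most of them present once per ribosome, while the stalk holds several copies of the products of Rplp1 and Rplp2. The mRNAs of these proteins are short, very abundant in growing cells and usually begin with a terminal oligopyrimidine (TOP) element, a C followed by a run of C and T (U in the mRNA), through which the kinase complex mTORC1 and the RNA-binding protein Larp1 control their translation and storage. Mammalian genomes also hold many intronless copies of these mRNAs, the processed pseudogenes, which can differ little or not at all from the parent gene.

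The start sites and the coding starts are shown first, because the TOP element and the copies both return in the values that follow. Each window of 30 bases runs from 10 bases before an annotated RefSeq start (GRCm38.p6) through the first 20 bases of the transcript, 5′ to 3′ on the gene's strand, with runs of at least 5 C or T in capitals. Shown are the 3 protein genes with the lowest fold change, Rpl12, Rpl5 and Rps16, those of the 5 with the highest fold change for which a start was found, Rpl4, Rps26 and Rpl28, the stalk gene Rplp2, and Fau, whose symbol the rule does not cover.
Rpl12: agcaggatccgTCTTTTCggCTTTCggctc
Rpl5: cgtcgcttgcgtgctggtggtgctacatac
Rps16: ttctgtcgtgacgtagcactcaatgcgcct
Rpl4: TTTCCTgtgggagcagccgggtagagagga
Rpl28: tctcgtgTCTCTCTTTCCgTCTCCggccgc
Rps26: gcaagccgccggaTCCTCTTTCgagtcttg
Rplp2: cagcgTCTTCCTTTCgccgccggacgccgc
Fau: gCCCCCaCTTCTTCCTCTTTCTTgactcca
These windows lie on the plus strand at chr2:32961702-32961731 (Rpl12), chr5:107900518-107900547 (Rpl5), chr7:28350679-28350708 (Rps16), chr9:64173377-64173406 (Rpl4), chr7:4792955-4792984 (Rpl28), chr7:141447641-141447670 (Rplp2) and chr19:6057937-6057966 (Fau), and on the minus strand at chr10:128626487-128626516 (Rps26). The annotated starts of Rpl5 and Rps16 held no such run. The others shown held runs of 7 to 16 bases that touched the 5 bases on either side of the start. Of these, the run of 14 bases of Rpl4 begins before the window shown. Among named members whose starts are not shown, Rplp0 and Rpsa held no run touching these bases. The starts of Rps2, Rps21 (first entry) and Rpl32l held runs of 6, 7 and 10 bases.

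A RefSeq start was found for 57 of the 77 protein genes. A run of at least 8 C or T touching the 5 bases on either side of the start was present in 19 of these 57 (33.3%), and in 9.63% of all 27025 genes in the RefSeq table. A C at the first base followed by 4 bases of C or T, the plainest form of the TOP element, was found in 12 (21.1%) and in 2.49% of all genes. In the window of 300 bases around the start, searched on both strands, CCGGAAG, the core word of ETS factors such as Gabpa, was present in 23 (40.4%) against 9.12% of all genes. GGGCGG, the word of Sp1, was present in 34 (59.6%) against 35.9%, and ATGGCGG, a word of Yy1, in 9 (15.8%) against 4.19%. TATAAA was found in 5 (8.77%) and in 14.2% of all genes, and CACGTG, the E-box word of Myc, in 5 (8.77%) and in 7.24%. The median log2 fold change between the groups was -0.31 for the 19 genes with a long run and -0.37 for the 38 without, and -0.37 for the 23 genes with CCGGAAG and -0.36 for the 34 without. It was -0.35 for the 34 genes with GGGCGG and -0.38 for the 23 without, -0.38 for the 9 with ATGGCGG and -0.34 for the 48 without, -0.17 for the 5 with TATAAA and -0.38 for the 52 without, and -0.46 for the 5 with CACGTG and -0.35 for the 52 without. A matching word or run is a description of the sequence and not evidence that a factor binds there.

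In the Tgm2 knockout tumors 84 of the 88 genes had a lower mean log2 value than in the WT tumors, where 52.7% of all 19667 genes tested had a lower mean. The median log2 fold change (knockout over WT, on log2(value + 1)) was -0.32, a ratio of 0.80, against -0.03 for all genes tested. With the mean of the adipocyte markers as a covariate it was -1.175. That mean did not overlap between the groups, with deviations of -1.21, -0.47 and -1.06 in WT tumors 1 to 3, against 0.14, 1.82 and 0.79 in knockout tumors 1 to 3. Covariate and group thus cannot be fully separated, and the larger value is not read as an adjusted difference. Without the covariate, the difference between the groups was about as large as the spread between tumors of a group. The median standard error of the 88 fold changes was 0.30, and 50 of the 88 exceeded their own standard error while 4 exceeded it by a factor of 2. With limma, 0 members passed both limits, an adjusted p of 0.05 and a log2 fold change past 1 in either direction, and 0.102% of all genes did. At an unadjusted p under 0.05 the count was 1 of 88, against 5.78% of all genes tested (2.38% lower and 3.4% higher). In 1 member, the pseudogene Rpl6l, the 3 knockout tumors all lay below the 3 WT tumors, against 5.33% of all genes, and in 0 members they all lay above, against 5.18%. As the members were chosen on this contrast, nothing is read from these counts.

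**Figure D1:**
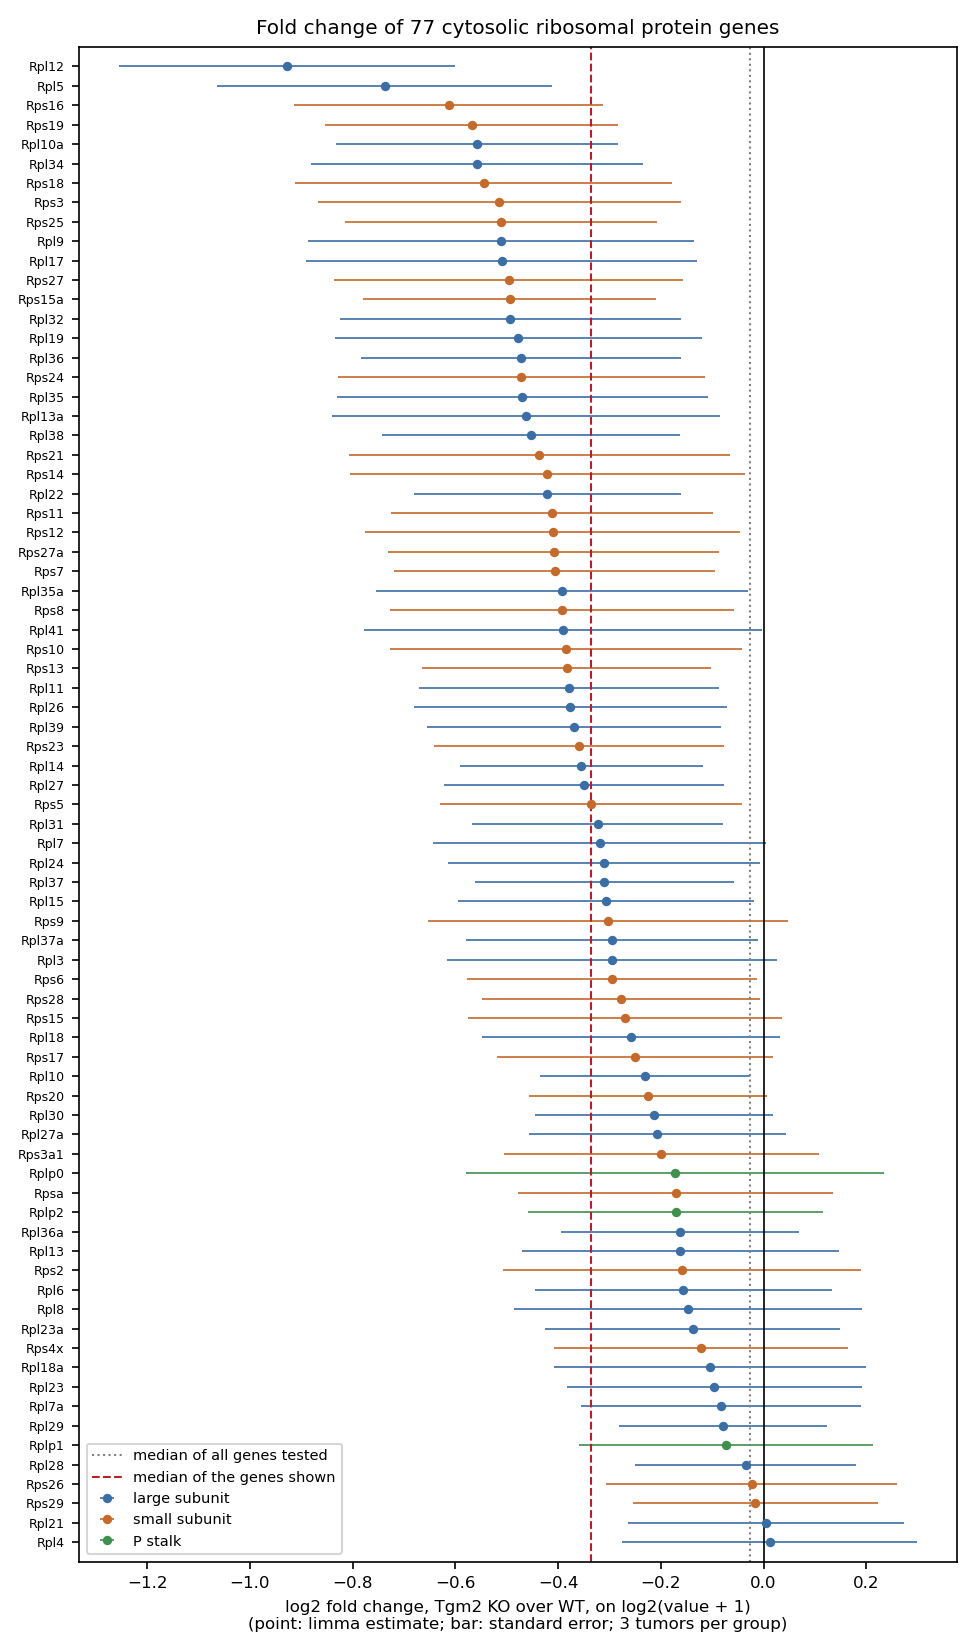
Log2 fold change (Tgm2 knockout over WT, x axis) of the 77 protein genes, ordered from lowest at the top, with the limma standard error as a bar and 3 tumors per group. The points run from -0.93 for Rpl12 to 0.01 for Rpl4 around a median of -0.34, and 47 of them lie farther from 0 than their own standard error.

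Both subunits had lower means. Among the core genes of the large subunit 43 of 45 had a lower mean, with a median of -0.32, and among those of the small subunit 31 of 31, with a median of -0.39. The 3 genes of the P stalk, the lateral arm that recruits translation factors, had a median of -0.17. The ratio of summed large to summed small subunit counts, stalk genes included, was 1.34, 1.32 and 1.22 in WT tumors 1 to 3, against 1.35, 1.31 and 1.39 in knockout tumors 1 to 3. WT tumor 3 thus had the lowest ratio and the groups overlapped.

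The tumors did not divide by host genotype. The 88 genes made up 4.63%, 7.10% and 6.16% of all normalized counts in WT tumors 1 to 3 (mean 5.96% ± 1.24, SD, n = 3) and 4.13%, 5.81% and 4.24% in knockout tumors 1 to 3 (4.73% ± 0.940, SD, n = 3). WT tumor 2 was highest and knockout tumor 1 lowest, WT tumor 1 lay near the lower knockout tumors, and knockout tumor 2 lay near WT tumor 3. The difference of -1.24 percentage points was about as large as the SD within the groups.

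Most of the genes were high or low together in each tumor but WT tumor 3. Knockout tumor 1 was the lowest of the 6 tumors for 66 of the 77 protein genes, and WT tumor 2 was the highest for 63. WT tumor 3 was the highest for 13 and the lowest for 5, knockout tumor 3 the lowest for 5, WT tumor 1 the lowest for 1 and knockout tumor 2 the highest for 1. WT tumor 1 lay below knockout tumor 2 for 74 of the 77. Averaged over the 77 genes, the deviation from each gene's own mean was -0.18, 0.46 and 0.22 on the log2 scale in WT tumors 1 to 3, against -0.45, 0.18 and -0.22 in knockout tumors 1 to 3. The gap of 0.64 between the mean log2 values of WT tumors 1 and 2 (14.10 and 14.74) exceeded the difference between the group means (14.44 ± 0.32 in WT and 14.12 ± 0.32 in the knockout, SD, n = 3).

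**Figure D2:**
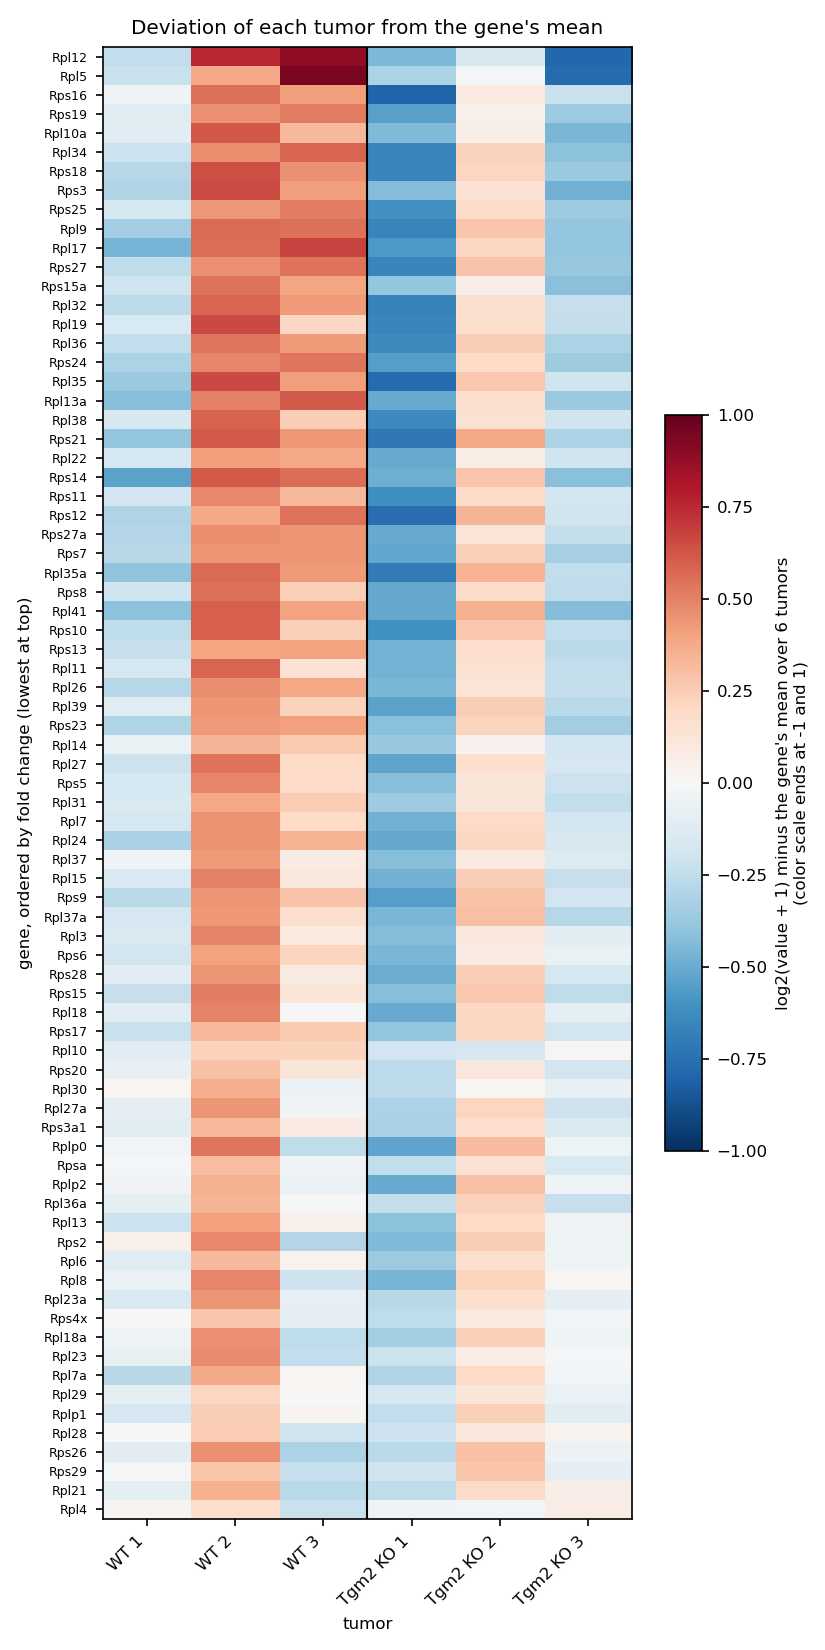
Deviation of log2(value + 1) from each gene's mean over the 6 tumors (color) for the 77 protein genes (rows, lowest fold change at the top) in WT tumors 1 to 3 and Tgm2 knockout tumors 1 to 3 (columns). The column of WT tumor 2 is high and that of knockout tumor 1 low from top to bottom, while WT tumor 3 passes from high at the top to low at the bottom.

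The count without overlap therefore rested on 2 tumors. Leaving out WT tumor 1 raised it from 1 to 47 of 88 members (13.1% of all genes), and leaving out knockout tumor 2 raised it to 44 (11.4% of all genes). Without WT tumor 2 the median fold change of the members was -0.18 with 68 lower, and without knockout tumor 1 it was -0.17 with 70 lower.

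WT tumor 3 separated the members from each other. Its log2 value relative to WT tumor 2 ranged from -0.79 to 0.55 over the 77 genes and was above 0 in 13. Genes high in WT tumor 3 were those with the lower fold changes (Spearman rho -0.70 across the 77 genes, a description, since both measures contain the value of WT tumor 3 and the genes share the same 6 libraries). The fold change followed transcript length (rho 0.18), mean level (rho 0.11) and GC content (rho 0.10) little across the same genes. In WT tumor 3 the 13 mRNAs encoded by mitochondrial DNA took 7.0% of all counts, against 1.79% to 3.59% in the other tumors, and the 20 proliferation genes were at their lowest. The part of these in the members' values was not tested. Without the mitochondrially encoded mRNAs in the total, the share of the 88 genes was 4.72%, 7.25% and 6.62% in the WT tumors, against 4.28%, 5.95% and 4.35% in the knockout tumors.

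The lowest fold changes among the core members belonged to Rpl12, Rpl6l, Rpl32l, Rpl5 and Rps16. Rpl12, which sits at the base of the stalk, had normalized counts of 1165, 2342 and 2557 in WT tumors 1 to 3, against 1016, 1239 and 803 in knockout tumors 1 to 3. Its log2 fold change was -0.93 (standard error 0.33), and WT tumor 1 lay below knockout tumor 2. Rpl5, which carries the small ribosomal RNA of the large subunit and can bind Mdm2, was at 1132, 1731 and 2532 in WT, against 1059, 1303 and 775 in knockout tumors, a fold change of -0.74 (standard error 0.33). Here too WT tumor 1 lay inside the range of the knockout tumors. Rps16, a small subunit protein whose tail touches the tRNA in the small subunit, was at 15099, 22865 and 20783 in WT, against 8965, 16689 and 13398 in knockout tumors, a fold change of -0.61 (standard error 0.30), with knockout tumor 2 above WT tumor 1.

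The other 2 of these 5 are annotated as processed pseudogenes with low counts. Rpl6l was at 54.7, 46.7 and 42.7 in WT, against 19.8, 36.3 and 22.8 in knockout tumors, a fold change of -0.88 (standard error 0.54). Rpl32l was at 2.80, 7.17 and 6.13 in WT, against 1.88, 3.92 and 2.22 in knockout tumors, a fold change of -0.76 (standard error 0.71), so that its values rest on a few reads per tumor.

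At the other end stood Rpl4, Rpl21, Rps29, Rps26 and Rpl28, whose group means were almost equal. Rpl4, which lines the exit tunnel of the large subunit, was at 42989, 47593 and 35978 in WT, against 41176, 41371 and 44306 in knockout tumors, a log2 fold change of 0.01 (standard error 0.29). Rpl21 had a fold change of 0.00 (standard error 0.27), Rps29 of -0.02 (0.24), Rps26 of -0.02 (0.28) and Rpl28 of -0.04 (0.22). For Rpl4, Rpl21, Rps26 and Rps29 the lowest of the 6 tumors was WT tumor 3, and the groups overlapped for all 5 genes.

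The most abundant members were Rplp0, Rpsa and Rps2. Rplp0, the stalk base and a common reference gene for quantitative PCR, was at 72180, 106219 and 61627 in WT, against 51020, 91409 and 70767 in knockout tumors, a fold change of -0.17 (standard error 0.41), with a range from 51020 to 106219 over the 6 tumors. Rpsa, a small subunit protein also known as a laminin receptor, had a fold change of -0.17 (standard error 0.31), and Rps2 of -0.16 (0.35). The other stalk genes, Rplp1 and Rplp2, had fold changes of -0.07 (0.29) and -0.17 (0.29). Among the core members the spread within groups was largest for Rps14, Rps21 and Rpl17, with a pooled SD of 0.55, 0.55 and 0.53 on the log2 scale. Rps14, whose human counterpart is lost in the 5q- syndrome, was at 16842, 37333 and 35933 in WT, against 17438, 29584 and 18258 in knockout tumors, so that WT tumor 1 was the lowest of all 6.

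The remaining protein genes filled the range between these ends without a gap. In the large subunit, log2 fold changes from -1.0 to -0.5 were found for 6 genes (Rpl12, Rpl5, Rpl10a, Rpl34, Rpl9 and Rpl17), and from -0.5 to -0.4 for 7 (Rpl32, Rpl19, Rpl36, Rpl35, Rpl13a, Rpl38 and Rpl22). Values from -0.4 to -0.3 were found for 12, among them Rpl11, the partner of Rpl5, from -0.3 to -0.2 for 6, from -0.2 to -0.1 for 6, and from -0.1 to 0.1 for 6. In the small subunit the same bands held 5 genes (Rps16, Rps19, Rps18, Rps3 and Rps25), 9, 6, 5, 4 and 2. The second of these bands held Rps27a, which is made as a fusion with ubiquitin, and the fourth held Rps6, the protein that S6 kinases phosphorylate. The bands overlap within the standard errors, which ran from 0.20 to 0.41 over the 77 genes.

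The paralogs did not share 1 direction. Their mean normalized counts ran from 2.85 for Rpl39l to 4841 for Rpl36al, and among the 77 protein genes Rpl5 and Rpl12 alone were listed below the latter, at 1422 and 1520. Rpl3l, the form of Rpl3 of striated muscle, was at 0.944, 1.04 and 17.3 in WT, against 2.84, 4.90 and 4.33 in knockout tumors, and Rpl39l, best known from testis, was at 0 in WT tumor 2 and knockout tumor 3. Rps4l had a log2 fold change of 0.27 (standard error 0.35) and Rps27l, a p53-inducible relative of Rps27, of -0.40 (0.27). Rpl22l1, Rpl36al and Rpl7l1 had fold changes of -0.15 (0.36), -0.09 (0.24) and -0.10 (0.23). The pseudogenes Rps3a2 and Rps3a3 stayed at or under 21.8 normalized counts in every tumor. Over the 9 paralogs the median was -0.15, with 7 lower and 2 higher. Of the 11 symbols on the list, Rpl10l and Rpl21l were not in the table.

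Per transcript length, the 77 protein genes did not have equal levels. The mean over the 6 tumors ran from 695 normalized counts per kilobase of transcript for Rpl5 to 87907 for Rpl41, with a median of 30382, a 126-fold range. Rpl5 and Rpl12 were the 2 lowest, Rpl12 being at 1224. For Rps20 the length used was that of a 3706-base transcript, so that its 4300 per kilobase understates it. The lengths used for Rpl5 and Rpl12 were 2045 and 1242 bases, for coding sequences of 891 and 495 bases, which may lower their values too. All comparisons with transcript length rest on such annotated lengths, and other lengths were not tried.

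Part of this range closed when near-identical copies, listed as separate genes, were added. The table held 427 genes, 416 of them annotated as processed pseudogenes and 11 as protein coding, that shared at least 100 stretches of 31 bases with a member, and 66 of the 77 protein genes had at least 1. A median of 63.3% of the 31-base stretches of a protein gene also occurred in transcripts of other genes. Of the 24 copies with a mean of at least 1000 normalized counts, 14 had a sequence identical to the whole coding sequence of the parent, so that reads from the coding part cannot be assigned by sequence. The first 30 coding bases of Rpl12, Rpl5 and Rpl10, whose copies took the largest shares, are given with those of the copies, the start codon in capitals.
Rpl12: ATGccgcccaagttcgaccccaacgaggtc
Gm10275: ATGccgcccaagttcgaccccaacgaggtc
Rpl5: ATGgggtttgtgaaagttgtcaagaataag
Gm15500: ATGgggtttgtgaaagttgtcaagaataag
Rpl10: ATGggccgccgccccgcccggtgttaccgg
Rpl10-ps3: ATGggccgccgccccgcccggtgttaccgg
The parents lie at chr2:32961559-32965345 (Rpl12), chr5:107900502-107909005 (Rpl5) and chrX:74270812-74273135 (Rpl10), all on the plus strand. The copies lie at chr10:29698746-29699380 (Gm10275), chr7:114705217-114706235 (Gm15500) and chr9:50344201-50344968 (Rpl10-ps3), all on the minus strand. There were 0 differences over 495, 891 and 642 coding bases, without the stop codon.

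The copies carried 94.9% of the summed counts of Rpl12, 97.1% of those of Rpl5 and 75.1% of those of Rpl10. Gm10275 alone was at 20804, 38532 and 37138 in WT, against 18037, 30161 and 22872 in knockout tumors, and Gm15500 at 36013, 64839 and 59580 in WT, against 29960, 53216 and 38049 in knockout tumors. Both copies thus exceeded their parents in every tumor. In all, copies carried over 10% of the sum for 19 of the 77 genes and over 50% for 5, the other 2 being Rpl27a and Rps23. Rpl27-ps3 and Gm11518, copies of Rpl27, had identical values in every tumor.

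Summed with their copies, the protein genes lay closer together. Levels ran from 5222 per kilobase for Rps20 to 87907 for Rpl41, with 80% of the genes between 23257 and 58044, and Rpl12 and Rpl5 moved to 23858 and 23732. The 2 lowest fold changes shrank, to -0.44 (standard error 0.35) for Rpl12 plus copies and -0.41 (0.38) for Rpl5 plus copies. The lowest was then Rps16 plus copies at -0.60 (0.32). The median of the 77 was -0.34 with and without copies, and 76 were lower in place of 75.

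**Figure D3:**
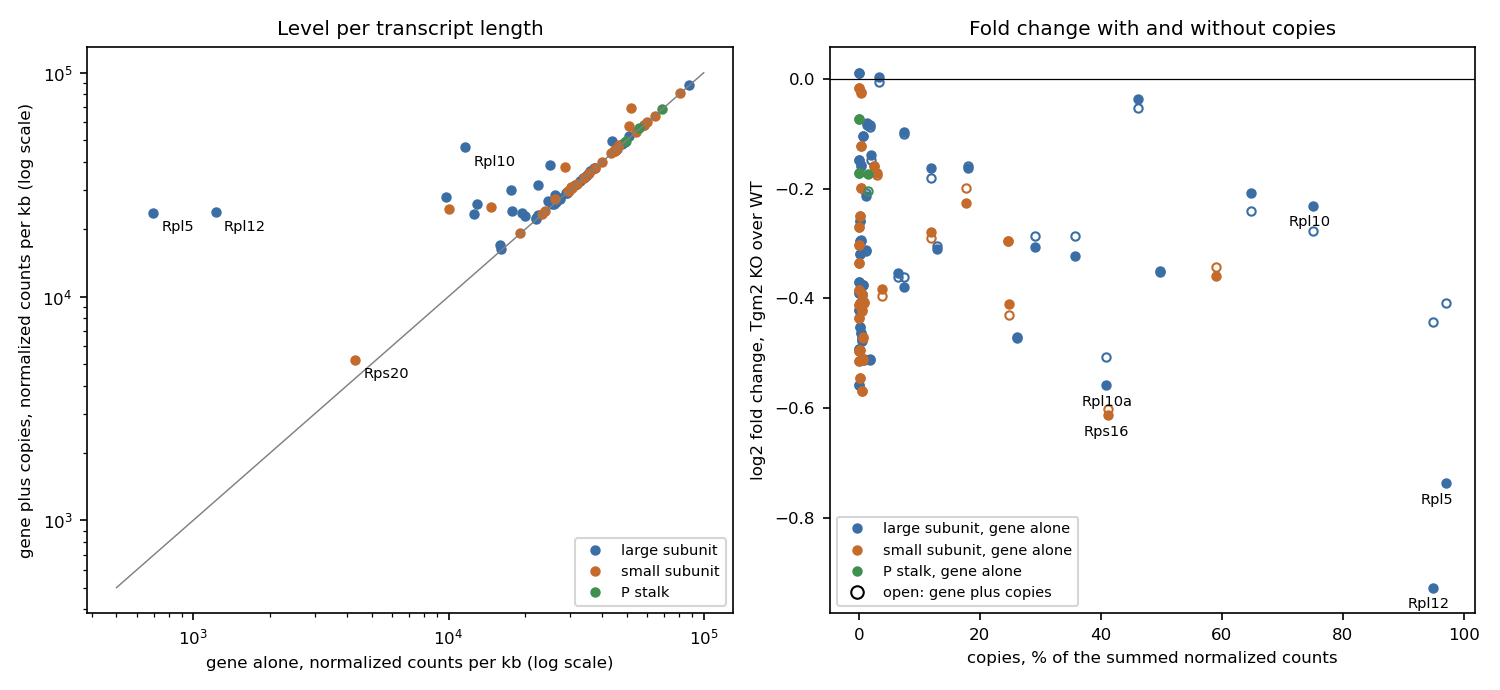
Left, mean normalized counts per kilobase of the gene alone (x axis) and of the gene plus its copies (y axis), both on log scales, for the 77 protein genes, with a line of equality. Right, share of copies in the summed counts (x axis, %) and log2 fold change (y axis) of the gene alone (filled) and of the gene plus its copies (open). Rpl12 and Rpl5 rise from 1224 and 695 to 23858 and 23732 per kilobase, and their fold changes move from -0.93 and -0.74 to -0.44 and -0.41.

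The copies were lower in the knockout tumors as well, with deviations of 0.01, 0.47 and 0.13 in WT tumors 1 to 3, against -0.34, 0.13 and -0.39 in knockout tumors 1 to 3. Of the 415 copies tested 322 had a lower mean in the knockout tumors, with a median of -0.36, 53 lay below every WT tumor in every knockout tumor and 3 above, against 5.33% and 5.18% of all genes, and none passed the limits with limma. At an unadjusted p under 0.05 there were 6, all of them lower, where 2.38% of all genes were lower at that limit. All 24 with a mean of at least 1000 had a lower mean. Of the 160 tested pseudogenes named -ps, 125 were lower (median -0.36), 20 lay below every WT tumor and 3 above, against the same 5.33% and 5.18%. Since reads of parents and copies cannot be told apart over identical sequence, these values are not treated as an independent measure.

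Fau and Rack1, ribosomal proteins outside the symbol rule, had the same order of tumors at the ends. Fau, whose product is cut into a ubiquitin-like part and a small subunit protein, was at 20636, 37139 and 31636 in WT, against 15635, 30601 and 21506 in knockout tumors (log2 fold change -0.41, standard error 0.35). Rack1, the scaffold protein of the small subunit, named after its values were seen, was at 45106, 80778 and 63590 in WT, against 35710, 54038 and 42797 in knockout tumors (-0.50, 0.36). In both, WT tumor 2 was the highest and knockout tumor 1 the lowest.

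Other parts of the translation machinery had medians nearer 0. Among 26 other mRNAs with a TOP element, a list that includes Fau and Rack1, 19 were lower and the median was -0.17. The most abundant of them, Eef1a1, which brings tRNAs to the ribosome, had a fold change of -0.20 (standard error 0.59), and Tpt1 had -0.35 (0.40). Of 56 initiation factors 35 were lower (median -0.06), of 12 elongation and release factors 7 (median -0.07), and of 44 factors of ribosome assembly 30 (median -0.08). In that last list the groups did not overlap for 5 genes that were lower in the knockout tumors, namely Nop56, Gnl3, Mrto4, Polr1e and Wdr43, and for 1 that was higher, Rrn3, against 5.33% and 5.18% of all genes. They were named after their values were seen, and the lowest was the nucleolar GTPase Gnl3 at -0.78 (standard error 0.24, adjusted p = 0.682 with limma). No gene of these lists passed the limits with limma. At an unadjusted p under 0.05 the counts were 0 TOP mRNAs, 1 initiation factor that was higher, 0 elongation factors and 3 of 44 assembly factors that were lower, where 2.38% of all genes were lower and 3.4% higher at that limit. Without WT tumor 2 the medians of the initiation, elongation and assembly factors were 0.03, 0.12 and 0.00, and without knockout tumor 1 that of the elongation factors was 0.05.

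The regulators of ribosomal protein synthesis had no common direction. Of the 19 genes for Myc, mTORC1 and promoter factors 9 were lower, with a median of 0.06, which was -0.06 without WT tumor 2 and -0.12 without knockout tumor 3. Myc was at 2823, 2816 and 2596 in WT, against 3020, 2398 and 3490 in knockout tumors (fold change 0.10, standard error 0.20). Larp1 was at 6646, 3548 and 5676 in WT, against 6381, 3427 and 6882 in knockout tumors (0.06, 0.33), lowest in WT tumor 2 and knockout tumor 2, the tumors of each group in which the ribosomal proteins were highest. This was not particular to Larp1. The 19 genes together were also lowest there, with mean deviations of -0.21 in WT tumor 2 and -0.21 in knockout tumor 2. So were 3138 genes with transcripts over 3000 bases, at -0.18 and -0.14. Of 10 S6 kinases 4 were lower, with a median of 0.10, which was -0.05 without knockout tumor 3. The lists of regulators and of S6 kinases each held 0 genes past the limits with limma and 0 at an unadjusted p under 0.05.

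The pattern over tumors was shared with other short mRNAs. The 78 mitochondrial ribosomal proteins, which are encoded in the nucleus and belong to a separate ribosome, had deviations of -0.10, 0.41 and -0.08 in WT tumors 1 to 3, against -0.31, 0.20 and -0.12 in knockout tumors 1 to 3, with 63 lower and a median fold change of -0.14, which was 0.02 without WT tumor 2. The 77 nuclear subunits of oxidative phosphorylation had deviations of -0.17, 0.38 and -0.04 in WT, against -0.35, 0.28 and -0.11 in knockout tumors, with 54 lower and a median of -0.11, which was 0.03 without WT tumor 2 and 0.03 without knockout tumor 1. Both lists held 0 genes past the limits with limma and 0 at an unadjusted p under 0.05. The 654 other genes with a transcript of at most 1000 bases and a mean of at least 1000, without copies, immunoglobulins and mitochondrially encoded mRNAs, had deviations of -0.10, 0.33 and -0.05 in WT, against -0.30, 0.20 and -0.08 in knockout tumors. In 3138 genes with transcripts over 3000 bases at the same level the signs were largely opposite, at 0.11, -0.18 and -0.01 in WT, against 0.05, -0.14 and 0.18 in knockout tumors. Apart from WT tumor 3, where among these lists the ribosomal proteins alone were above their mean by over 0.1, the short lists were high and low in the same tumors.

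Outside the members, the fold change between the groups differed with transcript length, though the shortest class did not have the lowest median. Among non-member genes with a mean of at least 1000, the median log2 fold change was -0.09 for 118 genes of at most 500 bases, -0.13 for 594 genes up to 1000 bases, -0.03 for 1608 up to 2000, 0.03 for 2756 up to 4000 and 0.09 for 1985 longer genes. The classes up to 1000 bases together hold more genes than the 654 above. They thus keep some of the copies, immunoglobulin genes or mitochondrially encoded mRNAs left out there, whose part in these medians was not tested. Of the 77 protein genes 61 had transcripts of at most 1000 bases. The part of transcript length in the members' fold changes was not tested.

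**Figure D4:**
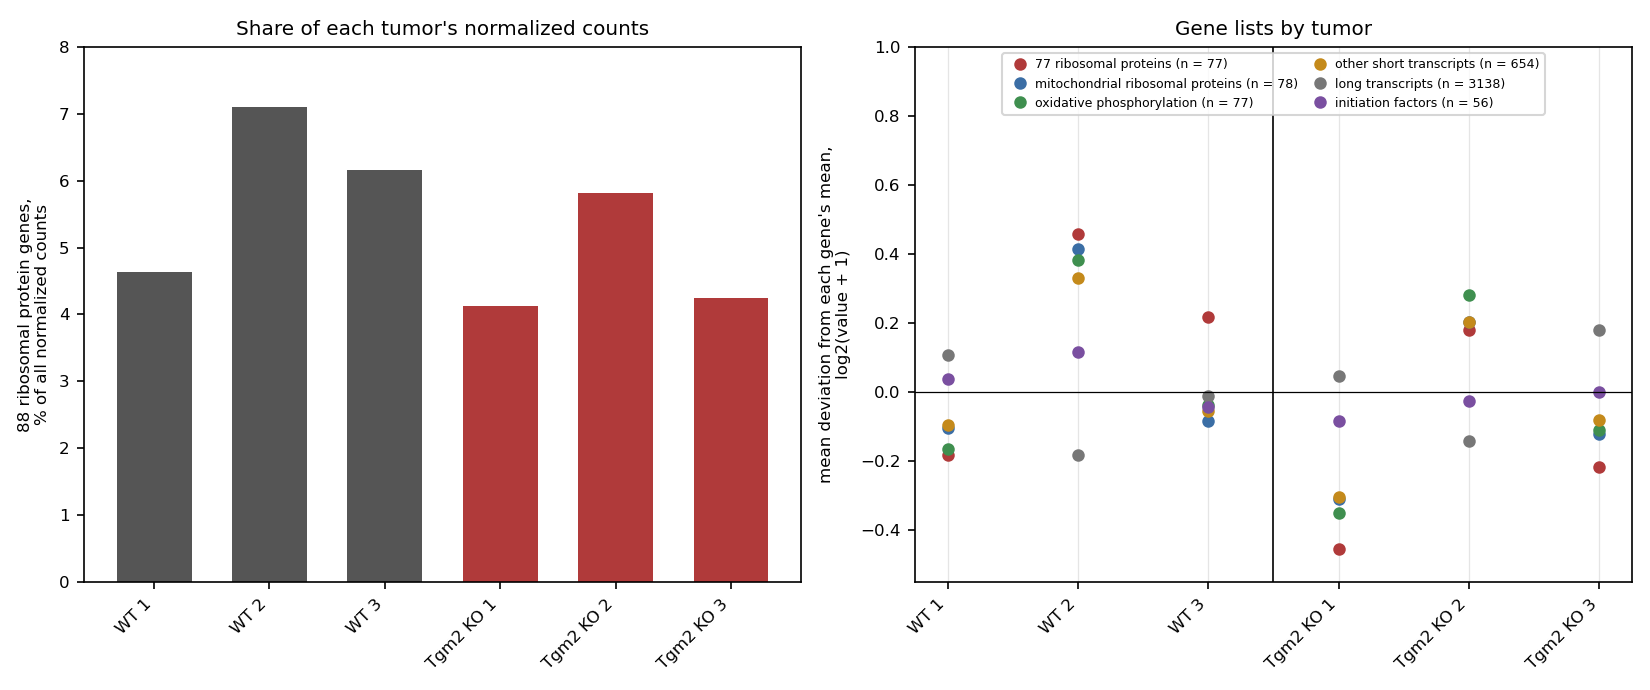
Left, share of the 88 ribosomal protein genes in all normalized counts of each tumor (bars, %), from 4.13% in Tgm2 knockout tumor 1 to 7.10% in WT tumor 2. Right, mean deviation from each gene's own mean (log2(value + 1)) for 6 lists in each tumor, where the lists of ribosomal, mitochondrial ribosomal, oxidative phosphorylation and other short transcripts are high in WT tumor 2 and low in knockout tumor 1, and the long transcripts run the other way in WT tumor 2.

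Markers of other cells differed between the tumors as well. In these bulk samples fewer cells of a type and less RNA per cell cannot be told apart. The labels call the samples cancer cells of primary tumors, and the epithelial genes Krt8 and Wt1 were abundant, but markers of host cells were present throughout. Of 12 epithelial and mesothelial genes 9 were lower in the knockout tumors (median -0.32). Their summed share was 0.240%, 0.289% and 0.274% of all counts in WT and 0.227%, 0.206% and 0.220% in knockout tumors. The groups overlapped in the mean deviation, at -0.34, 0.16 and 0.62 in WT, against 0.11, -0.10 and -0.46 in knockout tumors. WT tumor 1 thus lay below knockout tumors 1 and 2. All 12 were detected, and the most abundant, Wt1, had a fold change of 0.11 (standard error 0.25). The knockout tumors lay below all WT tumors for 3, Krt8, Krt19 and Upk1b, as for 5.33% of all genes.

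Adipocyte markers ran in the opposite direction, with 20 of 20 higher, a median of 1.88 and Lep past the limits (3.74, standard error 0.47, adjusted p = 0.0393 with limma). Their summed share was 0.165%, 0.201% and 0.137% in WT, against 0.202%, 0.662% and 0.378% in knockout tumors, and it was highest in knockout tumor 2, where the ribosomal proteins were highest among the knockouts. Lpl was the most abundant and no marker was at 0 in all tumors. Immunoglobulin genes took 0.0914%, 0.0661% and 0.140% in WT, against 1.87%, 1.87% and 2.81% in knockout tumors, with 13 past the limits, all higher, and Igha the most abundant. With these genes removed from the total, the share of the 88 ribosomal protein genes was 4.64%, 7.10% and 6.16% in WT, against 4.21%, 5.92% and 4.36% in knockout tumors, a difference of -1.14 percentage points. The ovarian steroidogenic enzyme Cyp11a1 was at 8648 in WT tumor 1 and 22480 in knockout tumor 1, and between 158 and 209 in the other 4 tumors, the first 2 being the lowest WT and the lowest knockout tumor for most ribosomal protein genes. Star, which moves cholesterol into mitochondria and was the most abundant gene of that list, was highest in WT tumor 2, at 5987, 8970 and 4223 in WT, against 5340, 5450 and 7639 in knockout tumors. Of the remaining marker lists, the mean was higher in the knockout tumors for 10 of 10 general leukocyte genes (median 0.53), 11 of 12 macrophage genes (0.45), 10 of 10 T cell genes (0.85), 9 of 10 B cell genes (0.95), 11 of 12 plasma cell genes (0.94), 9 of 10 fibroblast genes (0.60), 8 of 10 endothelial genes (0.43), 17 of 20 proliferation genes (0.30) and 6 of 7 ovarian steroidogenic genes (0.92). For striated muscle it was higher for 4 of 11 genes (median -0.07), and for the mitochondrially encoded mRNAs for 6 of 13 (median -0.01). The median of the proliferation genes was -0.22 without WT tumor 3, that of the steroidogenic genes -0.87 without knockout tumor 1, that of the muscle genes 0.34 without knockout tumor 3 and that of the mitochondrially encoded mRNAs 0.55 without WT tumor 3 and 0.05 without knockout tumor 2. In these lists Cd79a of B cells and Jchain and Mzb1 of plasma cells passed the limits, all higher. With any 1 of the 6 tumors left out, Lep and Cd79a no longer passed (adjusted p with limma 0.0531 to 0.269 for Lep and 0.0644 to 0.161 for Cd79a), and without WT tumor 2 neither did Mzb1 (0.0724). Of the 13 immunoglobulin genes 4, 1 and 7 still passed without WT tumor 1, 2 or 3, and 10, 7 and 8 without knockout tumor 1, 2 or 3. Igha (0.0532) was among the 12 lost without WT tumor 2, and Ighj2 and Ighj4 were lost with any 1 tumor left out. With 1 tumor left out the median ran from 0.11 to 0.90 for macrophage genes, from 0.13 to 0.75 for fibroblast genes and from 0.28 to 0.81 for leukocyte genes, each lowest without WT tumor 3. With the mean of the adipocyte markers as a covariate these medians were -0.74, -0.11 and -0.01, and that of the 88 ribosomal protein genes was -1.175 in place of -0.32. As the adipocyte mean did not overlap between the groups, this covariate cannot be fully separated from the host genotype. The parts of epithelial, immune and ovarian tissue content in the ribosomal protein values were not tested.

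Tgm2 itself was read at 14978, 12155 and 13180 in the WT tumors and stood at 5853, 6071 and 8157 in the knockouts, without overlap (log2 fold change -1.02, standard error 0.22, adjusted p = 0.391 with limma). The tumors with the least Tgm2 in the knockout group, 1 and 2, were the lowest and the highest of that group for the ribosomal proteins.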

How the data were processed

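Per the submitters' processing notes, reads were quantified with kallisto 0.46.2, with GRCm38 as the named build. The authors summed transcripts to genes with biomaRt, removed genes of low expression and scaled the libraries with the estimateSizeFactors function of DESeq2. The deposited values, in a table called TPM, are a signal, namely counts divided by size factors, and median-of-ratios size factors computed here were 1.0018 in every tumor. The tests had been planned for TPM and were kept. The 19667 of 20076 genes that reached 1 in 3 or more of the 6 tumors were fitted on log2(value + 1) with limma 3.58.1 (R 4.3.3), with 1 contrast, a variance trend and Benjamini-Hochberg adjustment over all genes. The model was tested on simulated data. The labels do not say that each tumor came from a separate mouse, so p-values measure the spread between these samples.

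The members and the gene lists were chosen with earlier results of these data known. Named genes were Tgm2, the 5 core members with the lowest and the 5 with the highest fold change, the 3 most abundant, the stalk genes, the 3 with the largest spread within groups, the paralogs, Fau, and in each list the genes past the limits and the 2 most abundant, not all of which are printed. The result of 1 further gene that the rule names is not reported here. Of the lists, 10 snoRNA host genes had no row in the table. Transcript lengths came from GENCODE M21, as the shortest transcript with a CCDS tag, and all 88 members matched by symbol. Copies were genes named Gm, -ps or annotated as pseudogenes that shared at least 100 stretches of 31 bases with a member. Start sites came from RefSeq (GRCm38.p6), using the first entry of a gene. Python 3.11.15 was used for tables. The smallest p of an exact permutation test of 3 against 3 tumors is 0.1.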

Additional observations from a re-analysis of the deposited data

How the results depend on the processing

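The median fold change of the 88 members stayed below 0 and the count of lower members stayed within 1.5 times 84 under all alternatives run (the covariate applies to the median alone), at -0.50 to -0.17 and 68 to 85 when each tumor was left out in turn. The difference in their share of all counts ranged from -1.90 to -0.67 percentage points over the same omissions. The mean of the adipocyte markers did not overlap between the groups and cannot be fully separated from them. With it as a covariate the median was -1.175 and the number of genes past the limits over all genes fell from 20 to 1. That number was 4 without a variance trend and 2 to 15 without 1 tumor. The number of members with every knockout tumor below every WT tumor, 1 (5.33% of all genes), became 4 after quantile normalization (5.9% of all genes), 0 among members with a mean of at least 1000 (3.11% of all genes at that level), 0 without Rpl6l, Rpl32l and the paralogs, 2 without WT tumor 3 and knockout tumor 1 together (17.1% of all genes), and 1 to 47 without 1 tumor (7.74% to 13.1% of all genes). The omission of both tumors, that of Rpl6l, Rpl32l and the paralogs, the sums with copies and the total without mitochondrially encoded mRNAs were chosen after seeing the data. Over all genes the deviations of tumors 1, 2 and 3 correlated at -0.20, 0.28 and -0.31 between groups, and the main fit did not pair the tumors. Averaged over the 77 protein genes, however, tumor 1 was the lowest and tumor 2 the highest of each group. A factor shared by tumors of the same number was not tested. With the replicate block 5 genes passed the limits. Of 489 values for 29 named ribosomal protein genes under the alternatives, 464 moved by less than the SD within groups, and the 25 others, 1 in each of 25 genes, came from the adipocyte covariate. A fold change could change sign without counting as moved. With 1 tumor left out, that of Rplp0 ran from -0.37 to 0.05 and that of Rps2 from -0.34 to 0.04. Those of Rpl12, Rpl5 and Rps16 stayed below 0. Of 360 medians of 24 comparison lists 331 moved by less than the SD within groups, and of the 29 others, in 19 lists, 17 came from the adipocyte covariate. The median took the other sign in 6 lists without WT tumor 2, in 6 with the covariate, in 3 without knockout tumor 1, in 3 without knockout tumor 3, in 2 without WT tumor 3, in 1 without knockout tumor 2, and in 1 each, the mitochondrially encoded mRNAs, after rescaling by the upper quartile or without immunoglobulin genes. Depth limits Rpl3l, Rpl39l, Rpl32l, Rps3a2 and Rps3a3, which rest on a few reads.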
